A study of Mus musculus with 17 samples.

Results

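The dual-specificity MAP kinase phosphatases described here are 9 genes, Dusp1, Dusp2, Dusp4, Dusp5, Dusp6, Dusp7, Dusp8, Dusp10 and Dusp16, of 43430 gene IDs in each of 2 deposited count tables. The family was chosen by the log2 fold changes of 2 of its genes after ISRIB, Dusp6 lower and Dusp8 higher, so the members' values in that comparison are a description and carry no test. The stated rule does not use the bleomycin comparison, which was tested, although the members were listed with earlier results of these data known. Members were found by their symbols in GENCODE M21, and each symbol matched 1 gene ID in both tables.

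RNA was sequenced from 17 libraries of alveolar epithelial type 2 (AT2) cells, the surfactant-making cells of the lung alveolus, sorted by flow cytometry from C57BL/6J mice aged 2 months. The first experiment held 4 libraries from uninjured mice given vehicle (titled saline) and 4 from uninjured mice given ISRIB, a small molecule that counters the translational block set by the integrated stress response, all taken 24 h after dosing and made with a poly(A) kit from 3 ng of RNA. The second held 4 libraries of naive mice and 5 of mice that had received bleomycin 14 days before, a drug that injures the lung and leaves fibrosis, made with a total-RNA kit from 0.35 ng of RNA. Their titles also say saline, and their treatment label is vehicle in both groups. The labels used here give no dose, sex or number of mice per library. P-values therefore weigh a group difference against the spread between these libraries. Whether that is a spread between mice is not known. Kit, RNA input and depth separate the experiments, so levels were never compared across them.

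Depth ran from 10493574 to 15727139 counts per library with the poly(A) kit and from 3295257 to 6333166 with the total-RNA kit, so weakly expressed members such as Dusp5 and Dusp10 rest on few reads in the bleomycin experiment. Replicates varied by 7.66% (edgeR's common coefficient of variation) in the ISRIB experiment and by 21.1% in the bleomycin experiment.

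MAP kinases (ERK, JNK and p38) are switched on by phosphorylation of a threonine and a tyrosine in their activation loop, and these phosphatases remove both phosphates. Dusp1, Dusp2, Dusp4 and Dusp5 encode nuclear enzymes that are induced by growth factors or stress, Dusp6 and Dusp7 encode cytoplasmic enzymes selective for ERK, and Dusp8, Dusp10 and Dusp16 encode enzymes that act mainly on JNK and p38. Transcription of several members is itself driven by MAP kinase signalling, which makes them negative feedback genes, and Dusp6 is widely used as a readout of ERK activity. In AT2 cells the ERK pathway lies downstream of FGF and EGF receptors.

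The DNA just before the RefSeq start site is printed for 3 members, the pair on which the family was chosen and the member with the largest tested change. In GENCODE M21 the minus-strand genes Dusp8 and Dusp1 begin farther upstream, at 142095843 and 26562128. Their windows therefore lie inside those gene models, and the DNA before the farther starts was not searched. The windows come from RefSeq on GRCm38.p6, run 5′ to 3′ on the gene's strand and end at the base before the RefSeq start, or earlier where an exon is annotated. Capitals mark matches to TGACGTCA, the palindrome of the cAMP response element (CRE), and to its half-site TGACGT, which lies inside the full motif. Dusp8 spans chr7:142095285-142095534 on the minus strand, Dusp1 spans chr17:26508520-26508722 on the minus strand and Dusp6 spans chr10:99262981-99263230 on the plus strand.
Dusp8: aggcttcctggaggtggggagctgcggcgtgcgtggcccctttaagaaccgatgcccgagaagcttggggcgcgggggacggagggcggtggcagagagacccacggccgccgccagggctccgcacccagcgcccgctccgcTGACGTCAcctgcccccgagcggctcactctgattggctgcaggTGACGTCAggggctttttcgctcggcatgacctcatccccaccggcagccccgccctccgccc
Dusp1: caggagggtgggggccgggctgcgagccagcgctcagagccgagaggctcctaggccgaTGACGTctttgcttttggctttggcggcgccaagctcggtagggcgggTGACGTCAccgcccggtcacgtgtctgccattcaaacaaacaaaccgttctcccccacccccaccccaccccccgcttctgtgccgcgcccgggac
Dusp6: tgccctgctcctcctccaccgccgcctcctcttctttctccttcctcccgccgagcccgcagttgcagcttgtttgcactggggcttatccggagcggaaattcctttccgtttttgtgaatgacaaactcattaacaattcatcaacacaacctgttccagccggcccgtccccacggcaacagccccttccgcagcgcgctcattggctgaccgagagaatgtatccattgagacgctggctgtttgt

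The Dusp8 window held the full CRE at 2 places, starting 107 and 63 bases before the RefSeq start. Dusp1 held 1 full CRE, starting 143 bases before the start, and a separate half-site at 191. Dusp6 held no match to either, and neither did Dusp16, which like Dusp8 was higher after ISRIB. Of 32851 RefSeq windows of 250 bases, searched on both strands, 1.55% held at least 1 full CRE, 0.0304% held 2 or more, and 6.47% held a half-site. Of the 9 members, 8 had a window in the RefSeq table (all but Dusp4). The full CRE was found in 2 of them and the half-site in 3. The CArG box, the site of serum response factor, was found in 1 member window, that of Dusp5, and in 1.47% of all windows. Dusp5 held it at 2 places, and 0.0183% of all windows held 2 or more. A GC box (GGGCGG) was found in 6 member windows and 32.7% of all windows. An E-box (CACGTG) was found in 2, those of Dusp1 and Dusp2, and in 6.02%. The heat shock element core (GAANNTTC) was found in 1, that of Dusp16, and in 6.69%. A TATA box (TATAAA) was found in 0 and in 12.4%. An AP-1 site (TGANTCA), an ETS site (CCGGAAG) and the stress-response element bound by ATF4 (TGATGNAA) had no match in the 8 member windows, against 6.75%, 6.91% and 3.45% of all windows. The windows of Dusp1 and Dusp5 were shorter, at 203 and 214 bases, because annotated exons were left out. These are matches of letters and were not tested for binding.

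Levels within the family were compared per kilobase of exon (CPM per kb), where CPM is the read count scaled to the effective library size. In vehicle libraries Dusp6 (27.1 ± 1.98 CPM per kb, SD, n = 4) and Dusp1 (26.6 ± 4.34) led and overlapped each other. Dusp16 (13.6 ± 1.51), Dusp4 (10.3 ± 1.18), Dusp7 (7.05 ± 0.37), Dusp8 (1.91 ± 0.32), Dusp5 (1.10 ± 0.06) and Dusp10 (0.76 ± 0.11) followed, and no neighbouring pair among these overlapped. Dusp2, best known from activated lymphocytes, was close to absent, with 3 reads over the 4 vehicle libraries and 12 over the 4 ISRIB libraries. With the longest transcript as the length, the mean of Dusp1 (38.05 ± 6.21 CPM per kb) was above that of Dusp6 (30.3 ± 2.22), and in vehicle 1 Dusp6 was the higher, so the ranges overlapped.

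In naive total-RNA libraries Dusp1 led alone, at 37.8 ± 2.68 CPM per kb (n = 4). Dusp16 (17.5 ± 1.72) and Dusp6 (13.7 ± 2.08) came next and overlapped, followed by Dusp4 (8.32 ± 1.15), Dusp7 (3.80 ± 1.48), Dusp8 (1.83 ± 0.63), Dusp10 (0.80 ± 0.29), Dusp5 (0.26 ± 0.16) and Dusp2 (0.08 ± 0.09). Dusp7 and Dusp8, Dusp8 and Dusp10, and Dusp5 and Dusp2 also overlapped. With the longest transcript as the length, Dusp16 (26.7 ± 2.62) and Dusp6 (15.4 ± 2.33) stood farther apart. After bleomycin (n = 5) Dusp1 (16.4 ± 2.80), Dusp6 (15.9 ± 3.23) and Dusp16 (15.3 ± 2.95) overlapped, so no single member led. By the longest transcript the means were 23.48 for Dusp1, 23.45 for Dusp16 and 17.9 for Dusp6.

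**Figure D1:**
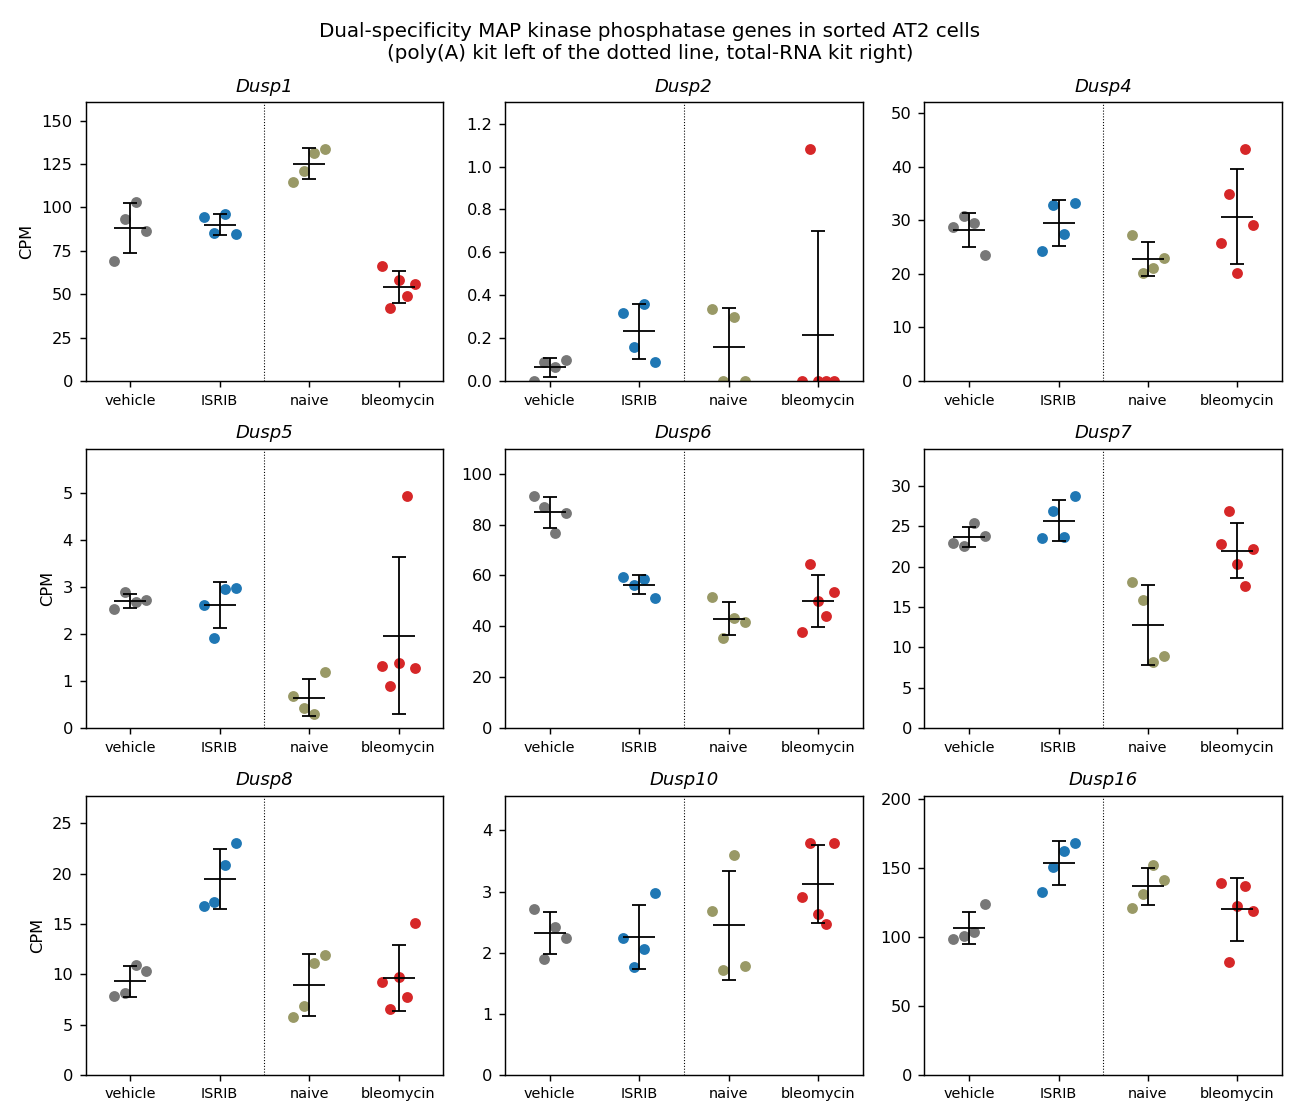
Normalised read count (CPM, y axis from 0, own scale per panel) of each phosphatase gene in each library (points), with the group mean and SD (bars), for vehicle, ISRIB, naive and bleomycin libraries. ISRIB libraries lay below all vehicle libraries for Dusp6 and above them for Dusp8 and Dusp16, and bleomycin libraries lay below all naive libraries for Dusp1.

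After ISRIB, 3 members had groups that did not overlap: Dusp6 lower, Dusp8 higher and Dusp16 higher. Groups did not overlap for 8.65% of the 12054 genes tested (4.26% with ISRIB above and 4.39% with ISRIB below vehicle), and nothing is read from the members' count since this comparison chose the family. By the test across all genes, 2.20% of genes were called at a Benjamini-Hochberg adjusted p under 0.05 (edgeR's quasi-likelihood test).

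Dusp6 (ENSMUSG00000019960, GRCm38 chromosome 10, 99263231 to 99267489), the cytoplasmic ERK phosphatase, measured 91.4, 86.9, 76.6 and 84.5 CPM in vehicle 1 to 4. In ISRIB 1 to 4 it measured 59.3, 56.1, 58.8 and 51.1 CPM. Every ISRIB library lay below every vehicle library, and the log2 fold change was -0.59 (SE 0.07). Its cytoplasmic relative Dusp7 (ENSMUSG00000053716, chromosome 9, 106368632 to 106375724), which also acts on ERK, stayed within overlapping ranges, 22.5 to 25.4 CPM in vehicle and 23.6 to 28.8 CPM in ISRIB libraries, a log2 fold change of 0.11 (SE 0.09).

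Dusp8 (ENSMUSG00000037887, chromosome 7, 142079490 to 142095843), a JNK and p38 phosphatase, measured 7.80, 8.14, 10.9 and 10.3 CPM in vehicle 1 to 4. In ISRIB 1 to 4 it measured 16.7, 17.2, 20.8 and 23.1 CPM, a log2 fold change of 1.05 (SE 0.13). The lowest ISRIB library was well above the highest vehicle library. Dusp16 (ENSMUSG00000030203, chromosome 6, 134715468 to 134792625), another JNK and p38 phosphatase and the member with the most reads in these libraries by CPM, measured 98, 100.7, 103 and 124 CPM in vehicle 1 to 4. It measured 132, 151, 162 and 168 CPM in ISRIB 1 to 4, a log2 fold change of 0.53 (SE 0.08) with no overlap. The third of this group, Dusp10 (ENSMUSG00000039384, chromosome 1, 184013302 to 184075636), was low, at 1.90 to 2.72 CPM in vehicle and 1.76 to 2.98 CPM in ISRIB libraries, with a log2 fold change of -0.05 (SE 0.24).

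The nuclear members overlapped between vehicle and ISRIB. Dusp1 (ENSMUSG00000024190, chromosome 17, 26505590 to 26562128), the prototype stress-inducible phosphatase, measured 69.1 to 103 CPM in vehicle and 84.8 to 96.0 CPM in ISRIB libraries, a log2 fold change of 0.03 (SE 0.09). Dusp4 (ENSMUSG00000031530, chromosome 8, 34807297 to 34819894) had a log2 fold change of 0.06 (SE 0.11) and Dusp5 (ENSMUSG00000034765, chromosome 19, 53529109 to 53542431), a nuclear phosphatase of ERK, one of -0.05 (SE 0.22). Dusp2 (ENSMUSG00000027368, chromosome 2, 127336159 to 127338376) did not pass the filter on low counts and got no fold change. Exons of Dusp8, Dusp1 and Dusp5 share 66, 11 and 547 bases with gene models on the opposite strand. No source used here says whether the counting used strand, so reads in the shared bases may be wrongly included or left out.

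**Figure D2:**
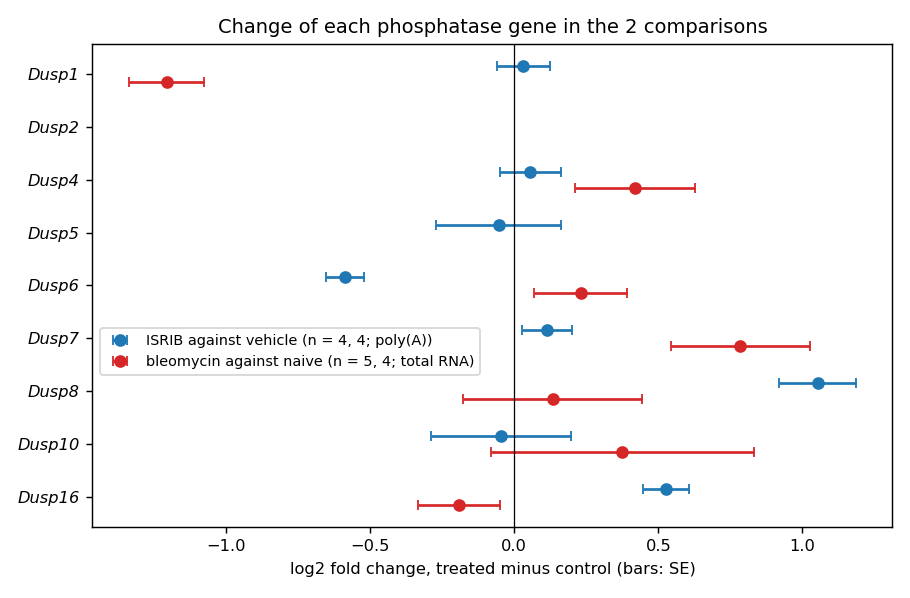
Log2 fold change (x axis, treated minus control) of each phosphatase gene with its standard error (bars), for ISRIB against vehicle (blue) and bleomycin against naive (red). Points farthest from 0 are Dusp8 (1.05), Dusp6 (-0.59) and Dusp16 (0.53) in the ISRIB comparison and Dusp1 (-1.21) and Dusp7 (0.78) in the bleomycin comparison, and a bar of 1 SE clear of 0 is no call. Dusp2 in both comparisons and Dusp5 after bleomycin were below the filter and have no point.

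The summed level of the 9 genes was almost the same in both groups of the ISRIB experiment, 88.4 ± 3.49 CPM per kb with vehicle and 89.2 ± 2.90 with ISRIB (n = 4 each). Its make-up differed. The cytoplasmic ERK-selective pair Dusp6 and Dusp7 held 35.1% to 43.1% of the sum in vehicle and 27.3% to 30.3% in ISRIB libraries. Dusp8, Dusp10 and Dusp16 held 16.8% to 21.1% and 24.6% to 29.9%. The level of Dusp8 per kb was 5.49% to 9.14% of that of Dusp6 in vehicle and 18.1% to 29.0% in ISRIB libraries. These shares restate the values on which the family was chosen and are given without a test.

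Among 14 other ERK feedback and target genes (Sprouty, Spred and ETV genes and others), 12 passed the filter and 1 was called after ISRIB, against 2.20% of all genes. Etv5, an ETS factor of AT2 cells that responds to FGF, measured 964 ± 37.3 CPM with vehicle and 793 ± 23.3 CPM with ISRIB (n = 4 each) and fell by 0.28 on the log2 scale (SE 0.05, adjusted p 0.00817 by edgeR). The Sprouty genes, which encode feedback inhibitors of the RAS to ERK route, had log2 fold changes of -0.03 (Spry1), 0.01 (Spry2) and -0.09 (Spry4), none called. Their median over the 12 was -0.05, beside -0.0001 over all genes tested.

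For the kinases that these phosphatases act on, and those upstream, the counts after ISRIB were near the background of 2.20% of all genes called. None of 18 tested genes of the RAS to ERK arm and none of 17 tested genes of the JNK, p38 and ERK5 arms passed the adjusted threshold by edgeR, by DESeq2 or by limma-voom. At an unadjusted p under 0.05 by edgeR there were 2 in each arm, beside 16% of all genes tested. Of 13 other tested dual-specificity and MAP kinase phosphatase genes, 0 passed by the same 3 tools and 2 had an unadjusted p under 0.05 by edgeR, again near the shares over all genes.

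Many immediate-early genes are MAP kinase targets, and they also respond to tissue dissociation. They were listed together with other dissociation genes, such as heat shock genes, so the list is not one of MAP kinase targets alone. Of the 17 listed genes tested after ISRIB, 3 were called higher and 3 lower, beside 1.10% of all genes in each direction. The count of 6 was 3 without vehicle 1. Socs3, an inhibitor of cytokine signalling, fell by 0.76 on the log2 scale (SE 0.10, adjusted p 0.00121). Egr1 fell by 0.93 (SE 0.14, adjusted p 0.00309) and Junb fell by 0.47 (adjusted p 0.00817). Jun rose by 0.40 (adjusted p 0.0137), a call lost without vehicle 1 (0.0546). The heat shock genes Hspa1a and Hspa1b, near-identical copies whose reads may be shared, rose by 2.57 and 2.71, from 2.28 to 15.3 and 3.62 to 20.9 CPM with vehicle to 5.61 to 67.6 and 11.1 to 95.0 CPM with ISRIB, so their groups overlapped. Both calls were lost without vehicle 1 (0.0741 and 0.0524) and without vehicle 2 (0.0769 and 0.0562), and that of Hspa1a also without vehicle 3 (0.0552) or ISRIB 3 (0.0535). Dusp1, itself an immediate-early gene, had overlapping groups in these libraries.

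After ISRIB, 1 of 3 tested macrophage and monocyte markers and 2 of 8 transitional epithelial markers were called lower, beside 1.10% of all genes. Of the tested markers for AT2, AT1, fibroblast, endothelial and airway cells 0 were called, beside 2.20% of all genes in either direction. The 10 AT2 markers summed to 193444 to 197693 CPM with vehicle and 186750 to 198396 CPM with ISRIB. Of the 8 lymphocyte markers, 6 were at 0 in all vehicle and 7 in all ISRIB libraries, and the sum over the 10 macrophage and monocyte markers was 6.89 to 9.64 CPM over both groups. Airway markers summed to 3823 to 4282 CPM with vehicle and 2360 to 4156 CPM with ISRIB, where ISRIB 2 (3268) and ISRIB 4 (2360) lay below every vehicle library. Their part in the members' differences was not tested. In bulk libraries, fewer cells of a type and less RNA per cell cannot be told apart.

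In the bleomycin comparison 7 of the 9 members passed the filter and 2 of them were called, Dusp1 lower and Dusp7 higher. That is 28.6% of those tested, beside 20.5% of all 11223 genes tested, a share near the background and no result about the family as a whole. Dusp6 and Dusp8, the pair on which the family was chosen, were not called. Nor was Dusp16, whose groups also did not overlap after ISRIB.

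Dusp1 fell 14 days after bleomycin, to 0.43-fold of its naive level. It measured 115, 121, 131 and 134 CPM in naive 1 to 4. It measured 66.4, 41.9, 58.1, 49.2 and 56.1 CPM in bleomycin 1 to 5. Every bleomycin library lay below every naive library, as for 9.35% of all genes tested (19.7% in either direction). The change was -1.21 on the log2 scale (SE 0.13, adjusted p 4.82e-06 by edgeR), which placed Dusp1 60th by p among 11223 genes. By size it stood out less, since 864 genes, Dusp1 included, changed at least as much in either direction. The call held under all 14 alternatives, with log2 fold changes from -1.28 to -1.12.

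Dusp7 rose, with values of 18.1, 15.8, 8.11 and 8.94 CPM in naive 1 to 4 and 22.7, 26.9, 20.3, 17.6 and 22.2 CPM in bleomycin 1 to 5. The log2 fold change was 0.78 (SE 0.24, adjusted p 0.0270). Bleomycin 4 lay below naive 1, so the groups overlapped. The call was lost without naive 3 (adjusted p 0.106), naive 4 (0.108) or bleomycin 2 (0.0587) and rests on these libraries.

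Dusp6 measured 51.3, 35.5, 43.2 and 41.7 CPM in naive 1 to 4 and 37.8, 64.6, 50.02, 43.9 and 53.4 CPM in bleomycin 1 to 5. The groups overlapped, with a difference of 0.23 on the log2 scale (SE 0.16, adjusted p 0.343). Bleomycin 2 was the highest library for both ERK-selective genes, Dusp6 and Dusp7, and the lowest for Dusp1 and Dusp16.

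Dusp8 measured 5.70, 6.84, 11.1 and 11.9 CPM in naive and 9.26, 6.50, 9.76, 7.73 and 15.04 CPM in bleomycin libraries, from 17 to 95 reads each. Its log2 fold change was 0.13 (SE 0.31, adjusted p 0.805), and its sign turned without naive 1 (-0.02) and without bleomycin 5 (-0.09). Dusp16 measured 121 to 152 CPM in naive and 81.7 to 139 CPM in bleomycin libraries, a difference of -0.19 on the log2 scale (SE 0.14, adjusted p 0.366). Dusp10, at 1.71 to 3.60 and 2.48 to 3.80 CPM, differed by 0.38 on the log2 scale (SE 0.46, adjusted p 0.610). Dusp10 rested on 6 to 24 reads per library, and the standard errors of Dusp8 and Dusp10 were the largest among the members tested.

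Dusp4, the nuclear phosphatase of ERK and JNK, measured 27.2, 20.1, 21.0 and 22.9 CPM in naive 1 to 4 and 25.7, 34.8, 20.1, 43.3 and 29.1 CPM in bleomycin 1 to 5. The log2 fold change of 0.42 (SE 0.21) was not called (adjusted p 0.165). Dusp5 did not pass the filter, with 9 reads over 4 naive libraries and 43 over 5 bleomycin libraries, 16 of these in bleomycin 4. Dusp2 had 2 reads in naive libraries together and 6 in bleomycin libraries, all 6 of them in bleomycin 2.

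The summed level of the family was 84.1 ± 3.64 CPM per kb in naive (n = 4) and 69.3 ± 2.41 in bleomycin libraries (n = 5), with ranges of 78.9 to 86.8 and 66.0 to 71.9. The nuclear members held 53.3% to 57.0% of it in naive and 38.5% to 45.4% in bleomycin libraries. Among them only Dusp1 had a lower mean after bleomycin, 37.8 against 16.4 CPM per kb. The means of Dusp4 (8.32 and 11.2), Dusp5 (0.26 and 0.80) and Dusp2 (0.08 and 0.11) were not lower. Dusp6 and Dusp7 held 18.5% to 25.8% in naive and 26.8% to 42.1% in bleomycin libraries, shares that a lower Dusp1 also raises. Dusp8, Dusp10 and Dusp16 held 20.8% to 26.5% and 19.2% to 29.7%, which overlapped. The level of Dusp1 per kb was 2.11 to 3.23 times that of Dusp6 in naive and 0.61 to 1.66 times in bleomycin libraries. No test was made of these sums, since members were chosen with results known.

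**Figure D3:**
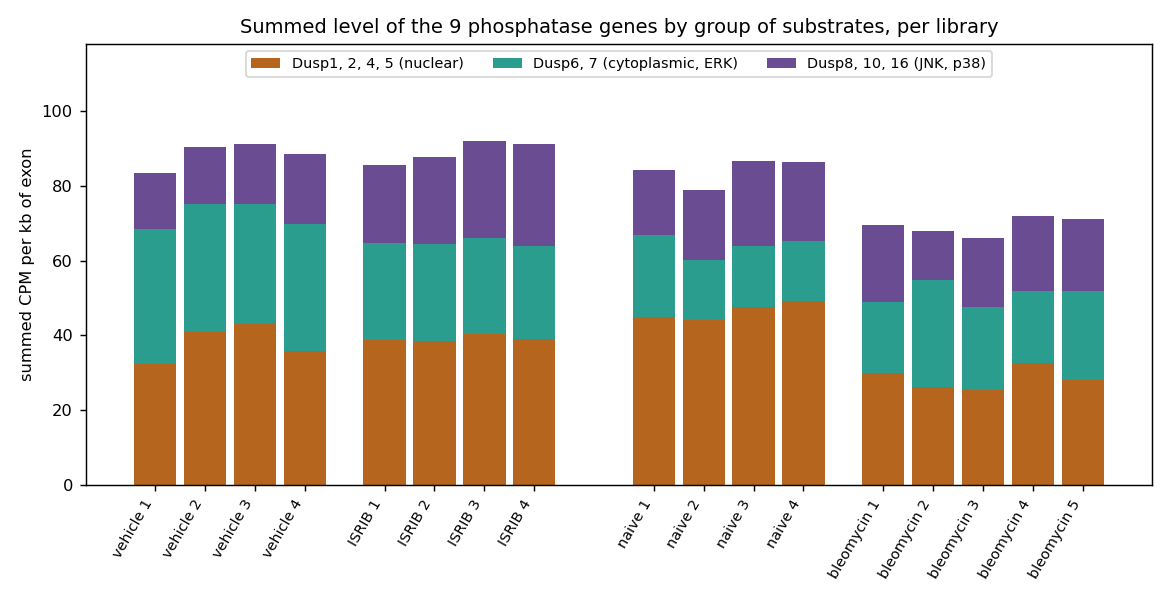
Summed level of the 9 phosphatase genes in each library (y axis from 0, CPM per kb of exon), stacked by group of members: nuclear (brown), cytoplasmic ERK-selective (green) and JNK- and p38-selective (purple). The total is alike in vehicle and ISRIB libraries while the green part is smaller and the purple part larger after ISRIB. Within these parts Dusp7 and Dusp10 overlapped between vehicle and ISRIB. Bleomycin bars (66.0 to 71.9) are below naive bars (78.9 to 86.8) with a smaller brown part. Of the genes in that part, only Dusp1 had a lower mean after bleomycin.

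Dusp1 was compared with the 17 immediate-early and dissociation genes after bleomycin. All 17 were tested, 5 were called lower (against 9.31% of all genes) and 3 higher (against 11.2%), and their median log2 fold change was -0.04 beside 0.0026 over all genes. The count of 8 was 5 without naive 2 or naive 4. Ier2 fell by 1.03 (SE 0.17, adjusted p 3.88e-04), Fos fell by 0.95 (SE 0.16, adjusted p 3.81e-04) and Jun fell by 0.86 (SE 0.14, adjusted p 2.86e-04), each with every bleomycin library below every naive library. Zfp36 fell by 0.54 (adjusted p 0.0163) and Fosb fell by 0.71 (adjusted p 0.0413). The Zfp36 call was lost without naive 2 (0.0719) or naive 4 (0.0984), and that of Fosb in 7 of 9 omissions of a single library (up to 0.184, without naive 3). Ier5 rose by 0.96 (SE 0.25, adjusted p 0.0104) and Socs3 by 0.63 (SE 0.15, adjusted p 0.00645). Atf3 rose by 0.69 (adjusted p 0.0484), a call lost in 7 of 9 omissions of a single library (up to 0.152, without naive 4). Junb (-0.04), Btg2 (-0.18), Klf6 (-0.37) and Egr1 (-0.51) were not called. Neither were Hspa1a (0.39), Nr4a1 (0.46), Klf4 (0.48), Hspa1b (0.64) and Klf2 (0.89), which lay above 0. Of the 17 genes, 8 had log2 fold changes above 0 and 9 below. Whether the sorting procedure contributed to the Dusp1 difference was not tested.

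**Figure D4:**
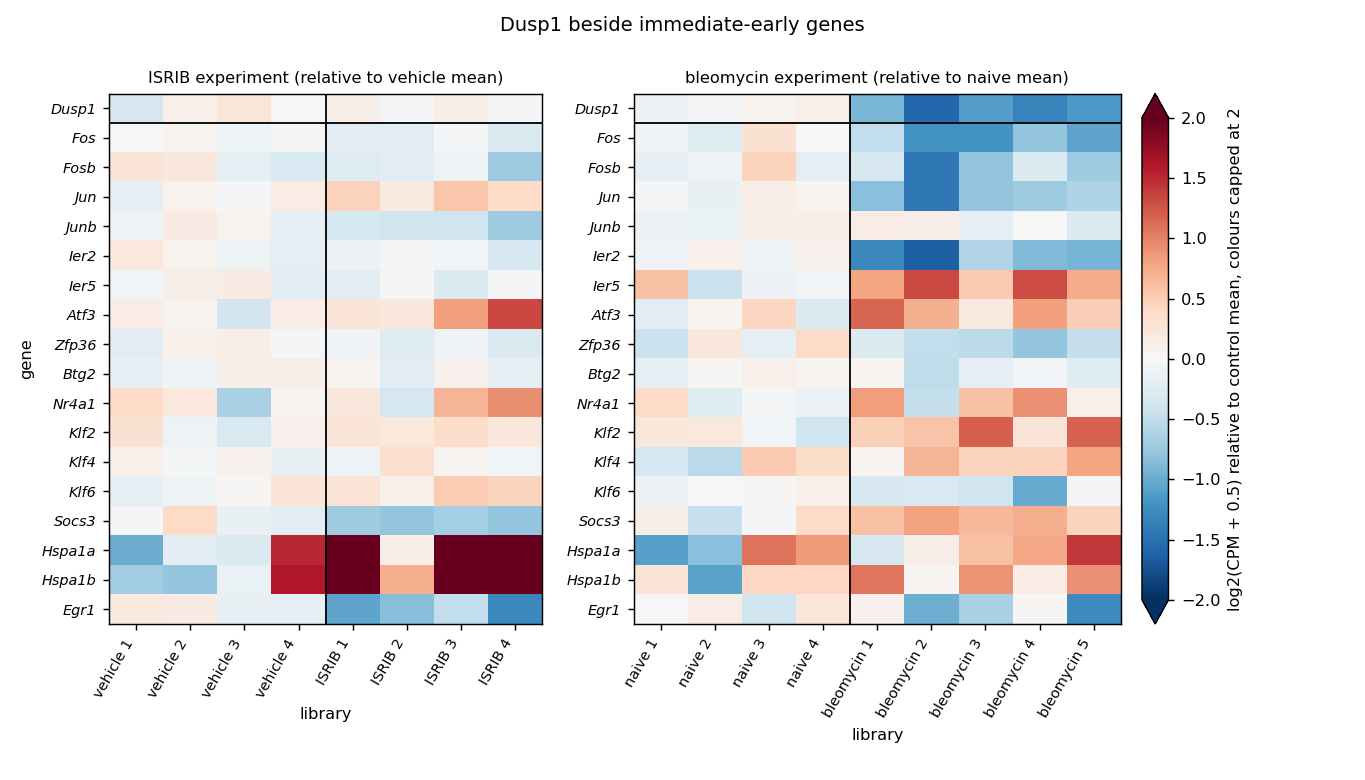
Level of Dusp1 (top row) and 17 immediate-early and dissociation genes in each library, as log2(CPM + 0.5) relative to the mean of the vehicle or naive libraries (colour, capped at 2). After bleomycin, Dusp1, Fos, Jun and Ier2 are blue in all 5 libraries while Ier5 and Socs3 are red. After ISRIB, Dusp1 is near white while Socs3 and Egr1 are blue.

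Of 10 ERK feedback and target genes tested after bleomycin, 2 were called higher and 3 lower, beside 11.2% and 9.31% of all genes, with a median log2 fold change of -0.28. The count of 5 fell to 3 without naive 1 or naive 4 and to 2 without naive 2. Spry1 measured 192 ± 15.2 CPM in naive (n = 4) and 106 ± 19.0 CPM in bleomycin libraries (n = 5), a change of -0.85 on the log2 scale (SE 0.13, adjusted p 1.48e-04). Errfi1, which encodes an inhibitor of the EGF receptor, fell by 0.68 (SE 0.14, adjusted p 0.00204). Etv5 fell by 0.43 (adjusted p 0.0199), a call lost without naive 1 (0.0534), naive 2 (0.0519) or naive 4 (0.0649). Spry4 rose by 1.33 (SE 0.41, adjusted p 0.0277) from a low level of 3.15 ± 1.18 CPM, and Ier3 by 1.10 (adjusted p 0.0212) from 4.66 ± 1.13 CPM. The Spry4 call was lost without naive 2 (0.0604), naive 3 (0.0883), naive 4 (0.0887) or bleomycin 5 (0.0603), and that of Ier3 without naive 1 (0.0584), naive 2 (0.0808) or bleomycin 2 (0.0530).

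In the RAS to ERK arm 1 of 17 tested genes was called after bleomycin, beside 20.5% of all genes. The count was 2 without bleomycin 1 or bleomycin 3 and 3 without bleomycin 4. Hras rose by 0.57 on the log2 scale (SE 0.15, adjusted p 0.0103). In the JNK, p38 and ERK5 arms 2 of 16 were called higher and 2 lower, near the shares of 11.2% and 9.31% over all genes, and 2 in all were called when any single naive library was left out. Mapk13, which encodes the delta form of p38, rose by 0.91 (SE 0.22, adjusted p 0.00649), from 20.0 ± 6.66 to 37.2 ± 9.00 CPM. Map3k5, the stress-activated kinase ASK1, fell by 0.63 (SE 0.12, adjusted p 8.33e-04), from 106 ± 2.87 to 68.5 ± 8.36 CPM. Mapkapk2 (0.34, adjusted p 0.0276) and Mapk9 (-0.46, adjusted p 0.0468) passed more narrowly. The Mapkapk2 call was lost without any 1 of the 4 naive libraries (0.0685 to 0.0912), and that of Mapk9 without any naive library (up to 0.145) or bleomycin 1 (0.0762), 2 (0.0797) or 3 (0.0843).

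Of the other phosphatases 11 were tested, 1 called higher and 2 lower, also near the shares over all genes. Dusp3, a small atypical dual-specificity phosphatase, rose by 0.60 (SE 0.14, adjusted p 0.00639), with every bleomycin library above every naive library, as for 10.4% of all genes. Ppm1b, a serine and threonine phosphatase, fell by 0.66 (SE 0.12, adjusted p 8.07e-04). Dusp11, an RNA phosphatase by activity, fell by 0.43 (adjusted p 0.0148), a call lost without naive 2 (0.0529), naive 3 (0.0507) or naive 4 (0.0543).

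Markers of other cell states differed in the same libraries, where 11.2% of all genes were called higher and 9.31% lower. All 8 markers of transitional epithelium were called higher after bleomycin, with sums of 391 to 467 CPM in naive and 819 to 1083 CPM in bleomycin libraries. Of 8 AT1 markers 6 were called higher. Fibroblast markers summed to 2.68 to 9.39 CPM in naive and 17.6 to 116 CPM in bleomycin libraries, with the highest value in bleomycin 2, and 3 of 3 tested were called higher. Endothelial markers summed to 19.4 to 27.3 CPM and 20.4 to 75.1 CPM, with 2 of 5 tested called higher. AT2 markers summed to 84655 to 92246 CPM in naive and 53050 to 92982 CPM in bleomycin libraries, with 2 of 10 called higher and 0 lower by edgeR. Airway markers summed to 444 to 901 CPM and 474 to 897 CPM, with 1 of 4 called higher. Macrophage and monocyte markers stayed at 6.20 to 11.4 CPM over both groups, with Marco at 0 in all 9 libraries. Without bleomycin 2 the Dusp1 change was -1.12 and still called, while that of Dusp7 was 0.70 and not called (adjusted p 0.0587 by edgeR). The part of these cell states in the differences of Dusp1 and Dusp7 was not tested.

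The genes whose levels tracked Dusp6 and Dusp8 most closely were ranked by the smaller of Pearson's r over the 8 poly(A) and over the 9 total-RNA libraries, among 8993 genes. Nearest to Dusp6 were Tppp3 (0.95 and 0.83), Mrps24 (0.81 and 0.80), Rpl36al (0.89 and 0.80), Lancl2 (0.81 and 0.79) and Rps27l (0.77 and 0.82). Nearest to Dusp8 were Zmynd19 (0.88 and 0.86), C2cd2l (0.89 and 0.84), Hspa1a (0.81 and 0.82), Lnx2 (0.94 and 0.77) and Tmem186 (0.74 and 0.77). The libraries share the group difference and the scaling factors, and the ranking picks the highest of many values, so these are descriptions.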

How the data were processed

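The authors deposited 2 count tables, 1 per kit, with a raw read count for each gene and library, as judged from the whole numbers they hold. The submitters' processing notes list bcl2fastq 2.19.1, FastQC, Trimmomatic 0.36, STAR 2.6.0, HTSeq 0.11.2 and mm10. No source used here names the annotation or strand setting. Symbols and positions come from GENCODE M21 (GRCm38), where 42462 of 43430 IDs matched.

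Each experiment was fitted on its own: filterByExpr (minimum count 10, minimum total 15), TMM, two-sided quasi-likelihood test on group alone with edgeR 4.0.16 (R 4.3.3), Benjamini-Hochberg over all genes tested, threshold 0.05. CPM use effective library sizes. The SE is the unshrunken log2 fold change over the root of F. DESeq2 1.42.0, RLE factors, limma-voom 3.58.1, no filter, a replicate block and omission of each library were alternatives. Log2 changes are treated minus control.

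On simulated counts with 200 genes changed by 1 on the log2 scale, the ISRIB design recovered 184 of 197 tested and the bleomycin design 119 of 189, with false calls at 5.64% and 8.46%. The members and all lists were chosen with earlier results of these data known. All 9 members are named. From each list, called genes with the largest changes are named, up to 4, and for list genes beyond these the choice was made after values were seen.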

Additional observations from a re-analysis of the deposited data

Results flagged for a closer look

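In 36 sets of 4 or 5 libraries (9 members in 4 groups), 2 had 1 library far from the rest, about the number chance gives at 1 in 20. Dusp2 measured 1.08 CPM in bleomycin 2, from 6 reads, and 0 in the other bleomycin libraries. Dusp5 measured 4.95 CPM in bleomycin 4, from 16 reads, against 0.90 to 1.39 CPM in the others. Both genes were below the filter in that comparison.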

How the results depend on the processing

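The Dusp1 call after bleomycin and its direction held under all 14 alternatives. The ISRIB changes of Dusp6 (-0.64 to -0.54), Dusp8 (0.97 to 1.15) and Dusp16 (0.48 to 0.60) kept their direction under all 13. That is a description of the same libraries and no support, since this comparison chose the family. The count of members called after bleomycin was 2, and 1 to 2 when single libraries were left out, since Dusp7 then lost its call. The sign of the Dusp8 change after bleomycin turned without naive 1 (-0.024), without bleomycin 5 (-0.086) and with a replicate block (-0.066), and single omissions gave -0.086 to 0.301. The number of genes called after ISRIB was 265, against 408 with DESeq2, 648 without the filter on low counts and 86 to 269 when single libraries were left out. After bleomycin it was 2304, and 1554 to 2584 when single libraries were left out. Replicate numbers share only a number: deviations of same-numbered libraries correlated at -0.117 to 0.105 after ISRIB and -0.036 to 0.078 after bleomycin. The replicate block gave 277 and 2187 called genes and called 2 members after bleomycin. For list genes named as called, alternatives that lost a call are given beside the gene where a library was left out. Among other settings, limma-voom lost Atf3, Ier3, Spry4, Hspa1a and Hspa1b, DESeq2 lost Hspa1a, the unfiltered fit lost Mapk9 and Mapkapk2, and the replicate block lost Atf3, Fosb, Mapkapk2 and Spry4. Length taken as the longest transcript raised the Dusp1, Dusp6 and Dusp16 levels per kb. Depth limits Dusp2, Dusp5 and Dusp10.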
